A study of Mus musculus with 22 samples.

Results

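The cytosolic ribosome is built from ribosomal RNA and a fixed set of ribosomal proteins, named RPL for the large subunit and RPS for the small one. Their genes were followed here in mouse liver. A member was a protein-coding gene whose symbol is Rpl or Rps followed by digits with an optional a, l, x or y, or Rplp0, Rplp1, Rplp2 or Rpsa. Pseudogenes and the Rps6k kinases were left out. The rule found 80 of the 47729 genes in the count tables, 49 of the large and 31 of the small subunit. The rule uses names and gene type and no measured value, but the members were chosen with earlier results of these data known.

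A growing cell makes ribosomal proteins in matching amounts, because nearly all are present once in each ribosome, and surplus proteins are degraded. Most of their mRNAs begin with a terminal oligopyrimidine (TOP) tract, a run of C and T at the very start of the transcript, through which mTORC1 signalling sets how fast they are translated. The transcription factor MYC and RNA polymerase I act on the same supply line. The genes are short, highly transcribed and unusually often copied back into the genome as processed pseudogenes, so a sequencing read from one of them can match several places.

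Livers came from male C57BL/6 mice, either wild type (WT) or Slc10a1-/- (KO), which lack the sodium taurocholate cotransporting polypeptide, the main bile salt uptake carrier of the hepatocyte. At 4 weeks and at 20 months of age each genotype gave 3 poly(A) RNA libraries, and at 8 weeks there were 4 from WT and 6 from KO livers, 22 in all. The cells that carry the deletion are not stated beyond the genotype, and the labels do not say that each library is a separate animal, so the p-values measure the spread between these libraries, which may be partly technical. Going by their file names, the 4-week libraries were read as pairs and the other ages as single reads, and the 8-week files carry another run tag than the 4-week and 20-month files. No pair of ages shares both, so age cannot be told apart from read layout and run tag together. Comparisons of KO with WT were made within one age, one layout and one tag.

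C and T runs near the annotated starts of the members called higher in KO livers at 4 weeks are shown first, with Rpl19, the member with the smallest difference there, beside them, because these mRNAs are known for such a run at their first base. RefSeq start sites on GRCm38.p6 matched 60 of the 80 members. In each, the longest unbroken run of C or T on the transcribed strand was sought from 50 bases before to 50 bases after the annotated start, and the 30 bases around it are printed 5′ to 3′ with the run in capitals. The position of its first base is given with 1 as the annotated first base of the transcript.
Rps23, chr13:90923142-90923171, plus strand, run from position 36: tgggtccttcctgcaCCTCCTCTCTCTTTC
Rps25, chr9:44407684-44407713, plus strand, run from position -22: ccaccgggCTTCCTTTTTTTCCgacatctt
Rpl36a, chrX:134585672-134585701, plus strand, run from position 28: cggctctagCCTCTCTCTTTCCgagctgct
Rpl10, chrX:74270836-74270865, plus strand, run from position 41: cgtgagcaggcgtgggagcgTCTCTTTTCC
Rpl13, chr8:123102324-123102353, plus strand, run from position -16: cgtgacgtcaCTTCCCTTTCgcctgatttt
Rps6, chr4:86857349-86857378, minus strand, run from position -1: ggaagtcgggCCTCTTTTTCgtgacgcctc
Rpl12, chr2:32961732-32961761, plus strand, run from position 40: ggaggaggcaacggtgcaaCTTTCTTCggt
Rpl19, chr11:98026660-98026689, plus strand, run from position -39: acttagcgtgaCTTCCggctacccagagga
Of those shown, only the run of Rps6 holds the annotated first base, and those of Rps23 and Rpl10 end at the edge of the searched stretch. The run measured 15 bases in Rps23 and 14 in Rps25. Rpl12 had 8, and Rpl19 had 5. Rps27l and Rpl41, the members with the next smallest differences at 4 weeks, had 9 and 10. A run of at least 10 bases was found in 39 of the 60 members (65.0%), against 5957 of all 32851 start sites in the table (18.1%). Of the 12 members called at 4 weeks, 7 had a start site in the table and 6 of those had such a run. The longest run was at least 10 bases and held the annotated first base in 11 of the 60 members (18.3%), against 678 of all start sites in the table (2.1%). A match describes letters near an annotated start and does not show where transcription began in these livers.

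A second feature of sequence bears on every level reported here. For each member the longest annotated coding sequence was cut into all its 50-base words, and the share of words that also occur in a transcript of another annotated gene was counted. In 27 members every word was shared, in 38 between 50% and 100%, and in 15 under 50%. The following 30-base coding stretches, one from a gene with all its words shared and one from a gene with few, carry in capitals the bases that lie in a shared word.
Rps23, exon 2 of 4, chr13:90923587-90923616 on GRCm38, plus strand: GCAAGTGTCGTGGTCTCCGAACTGCCCGGA
Rps27l, exon 2 of 5, chr9:66946864-66946893 on GRCm38, plus strand: gaggagaagaaaaaaCATAAGAAGAAACGG
All 30 bases of the Rps23 stretch lay in words shared with other genes, 12 in number. Of the Rps27l stretch 15 bases were shared. How the counting treated a read with several matches is not given in the sources used here, and the tables list no read as multiply aligned. A member with all its words shared can therefore have lost reads to its copies or to a filter, and its level is uncertain.

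Sequencing depth differed between the ages. The libraries held 5496425 to 6956124 assigned counts at 4 weeks, and 18032355 to 26789350 at the later ages. Slc10a1, the targeted gene, stood at 591 to 701 CPM (counts scaled to the library total, adjusted with TMM factors) in WT and 108 to 253 in KO at 4 weeks, at 435 to 470 in WT and 49.4 to 93.8 in KO at 8 weeks, and at 154 to 370 in WT and 92.3 to 103 in KO at 20 months. The groups did not overlap at any age, and its KO-to-WT log2 difference at 20 months was -1.49 (edgeR quasi-likelihood adjusted p = 0.821). Some libraries stood apart in cell-type markers. KO library 1 at 4 weeks had the lowest summed hepatocyte markers of its age (58660 CPM against 128900 to 185700 in the other 5). At 8 weeks, KO library 6 held 102 CPM of muscle markers. At 20 months, WT libraries 1 and 2 held 3375 and 400 CPM of neutrophil markers, against 6.83 to 16.4 in the other 4. In bulk tissue, fewer cells of a type and less RNA per cell cannot be told apart.

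**Figure D1:**
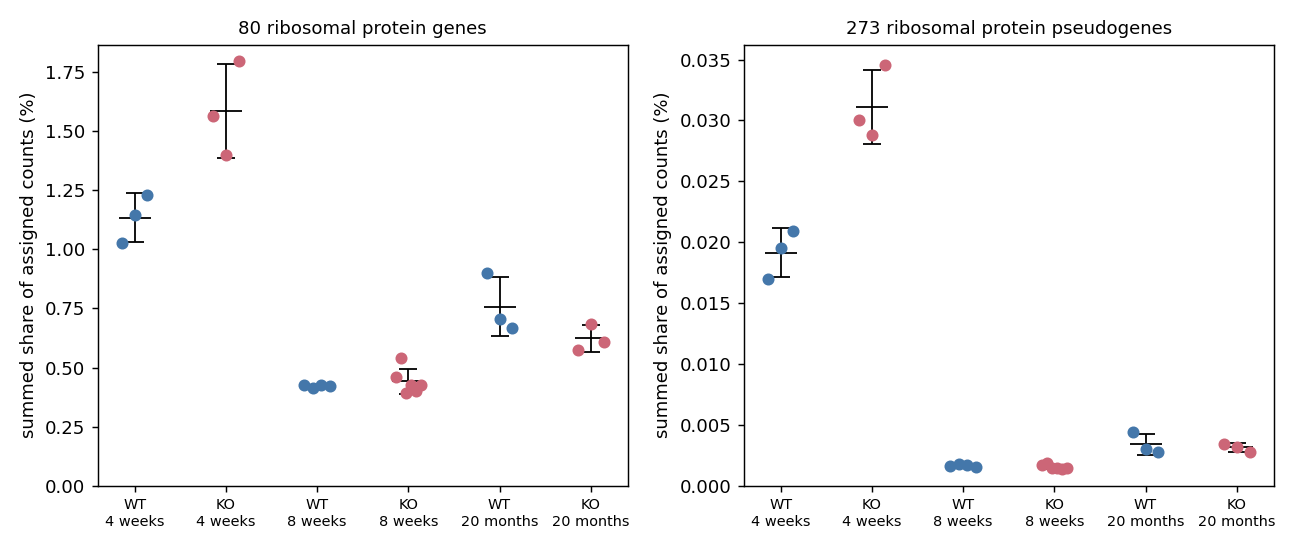
Summed share of all assigned counts, in percent, taken by the 80 ribosomal protein genes (left) and by 273 ribosomal protein pseudogenes (right) in each of the 22 libraries, with the mean and SD of each group. Both are highest at 4 weeks, where the 3 KO libraries lie above the 3 WT libraries, and lowest at 8 weeks.

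At 4 weeks ribosomal protein mRNA was higher in KO livers. The 80 members together took 1.03%, 1.15% and 1.23% of the assigned counts in the WT libraries and 1.56%, 1.40% and 1.795% in the KO libraries, so that every KO library lay above every WT library and the KO mean was 1.40 times the WT mean. Of the 75 members with enough counts to test, 12 were called higher in KO (edgeR quasi-likelihood test, Benjamini-Hochberg adjusted p under 0.05 over all 11144 genes tested) and 0 lower, against 5.17% of all genes called higher and 5.6% called lower. The log2 fold change was above 0 in all 75 of them, against 50.3% of all genes, with a median of 0.545 against 0.005 over all genes. KO and WT libraries did not overlap, with KO higher, in 32 members, against 15.8% of all genes. The 5 members not tested were Rpl10l, Rpl23a, Rpl24, Rpl39l and Rpl3l.

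Among large subunit proteins, Rpl10, which joins the subunit last and completes it for translation, stood at 26.4, 18.6 and 19.3 CPM in WT and 50.1, 37.0 and 48.3 CPM in KO. The lowest KO library was above the highest WT library, and the log2 fold change was 1.11 ± 0.22 (SE, adjusted p = 0.0207 by edgeR). Rpl3, a protein at the peptidyl transferase centre, stood at 76.9, 67.6 and 84.5 CPM in WT and 127, 146 and 206 CPM in KO, a log2 fold change of 1.10 ± 0.23 (adjusted p = 0.0218 by edgeR). Its groups were likewise separate, with KO library 3 well above the rest. Rpl17, which lines the exit tunnel, rose from 25.1, 19.1 and 25.5 CPM to 37.3, 54.1 and 43.1 CPM (0.98 ± 0.22 on the log2 scale). Rpl12, at the base of the stalk that recruits elongation factors, was the weakest of the called members in level, with 6.14, 8.07 and 8.60 CPM in WT against 15.6, 11.3 and 22.4 CPM in KO, and had the largest fold change of the 12, 1.14 ± 0.29. Rpl13 and Rpl36a were the other two called members of the large subunit, with log2 fold changes of 0.83 and 0.825.

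Among small subunit proteins, Rps6, the classical substrate of the S6 kinases, stood at 79.5, 93.0 and 81.0 CPM in WT and 117, 180 and 180 CPM in KO, a log2 fold change of 0.95 ± 0.22 (adjusted p = 0.0320 by edgeR). All KO libraries exceeded all WT libraries, with KO library 1 the nearest to WT. Rps20, in the head of the subunit, stood at 92.2, 99.2 and 96.6 CPM in WT and 132, 196 and 190 CPM in KO (0.88 ± 0.21). Rps23, at the decoding centre, stood at 51.2, 55.3 and 38.0 CPM in WT and 68.9, 119 and 103 CPM in KO (1.045 ± 0.26). The same order held in both: KO library 1 lay closest to the WT range. Rps27a, which is made as a fusion with ubiquitin, rose from 89.9, 107 and 113 CPM to 152, 162 and 189 CPM (0.735 ± 0.19). Rps25 was called as well, at 0.94.

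**Figure D2:**
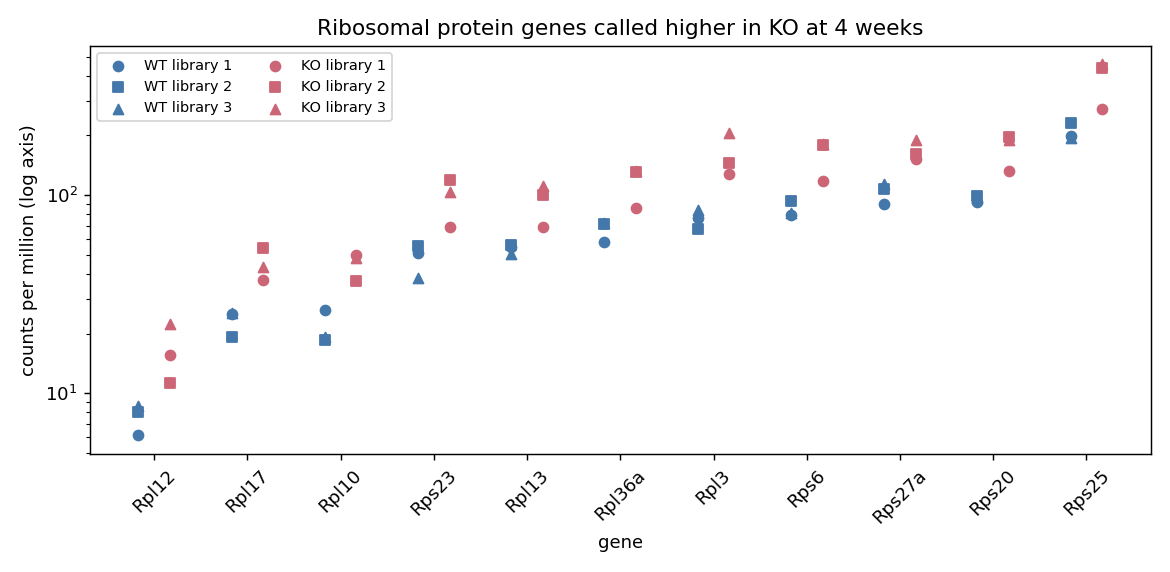
CPM on a log axis in the 6 libraries at 4 weeks for 11 ribosomal protein genes called higher in KO, ordered by their level in WT library 1; blue is WT, red is KO, and the symbol gives the library number. In all 11 genes the KO points lie above the WT points, and KO library 1 (circles) is often the nearest to them.

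The other 63 tested members also had fold changes above 0 but did not pass the test. Rpl10a had the largest of all, 1.17 ± 0.35 on the log2 scale, with an adjusted p of 0.063 (edgeR). Its WT libraries stood at 48.6, 59.2 and 54.9 CPM and its KO libraries at 56.8, 156 and 143 CPM, so KO library 1 fell within the WT range and the other two did not. Rpsa, the laminin receptor protein of the small subunit, had 0.74 (adjusted p = 0.0627), and Rpl5, which with Rpl11 and 5S ribosomal RNA binds the p53 regulator Mdm2, had 0.72 (adjusted p = 0.0738, both by edgeR). Rpl11 itself had 0.21, with overlapping groups. The stalk proteins Rplp0, Rplp1 and Rplp2 had 0.36, 0.32 and 0.56. Rps14 and Rps19, whose loss in humans impairs red cell production, had 0.16 and 0.235. The stalk genes, Rps14 and Rps19 all overlapped between genotypes. The 3 smallest fold changes were those of Rpl19 (0.04 ± 0.22), Rps27l (0.11 ± 0.21) and Rpl41 (0.12 ± 0.31).

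Both subunits held called members, 6 of 44 tested large and 6 of 31 tested small subunit members, and their medians were 0.54 and 0.60. All 12 called members had at least 85.7% of their coding words shared with another gene, where the median over all members was 89.8%. Members with every word shared gave 8 calls of 25 tested and a median log2 fold change of 0.722. Members with under 50% shared gave 0 calls of 12 tested, all 12 above 0, and a median of 0.345. Ribosomal protein pseudogenes moved the same way, with 19 of 19 tested above 0, a median of 0.714 and 3 called higher. Across the 75 members the fold change and the percent of shared words had a Pearson r of 0.388 and a Spearman rho of 0.385, over genes that share libraries and are not independent. The part of read assignment in the fold changes was not tested.

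How many members passed depended on single libraries and on the tool. DESeq2 called 22, and a fit of all 22 libraries called 26. Without WT library 1 the test called 1 member, without WT library 2 or WT library 3 it called 0, without KO library 3 it called 0, without KO library 2 it called 5, and without KO library 1 it called 37. The number of genes called over the whole table moved as well, between 184 and 2012. The median of the members stayed between 0.412 and 0.671 in those 6 fits, and 94.7% to 100% of the tested members were above 0. KO library 3 was the highest of the 6 libraries in 55 of the 75 members and WT library 1 the lowest in 48. The low hepatocyte marker sum of KO library 1 has been given above. Erythroid marker sums ran from 354 to 492 CPM in WT and from 156 to 208 CPM in KO, and 4 of the 5 erythroid markers tested fell. The endothelial sums ran from 305 to 367 CPM in WT and 191 to 261 CPM in KO. Lymphocyte markers were low throughout, at 25.6 to 28.7 CPM in WT and 7.73 to 16.1 CPM in KO. Macrophage sums ran from 748 to 918 CPM in WT and from 480 to 685 CPM in KO, and cholangiocyte sums from 34.9 to 40.6 CPM and from 17.1 to 26.6 CPM. Stellate cell sums lay the other way, at 258 to 319 CPM in WT and 347 to 469 CPM in KO. Single markers were mixed: of 8 stellate cell markers tested, 1 was called higher and 1 lower. Of 10 macrophage markers 1 was called higher and 2 lower, and of 8 endothelial markers 0 higher and 3 lower. Only 1 lymphocyte and 1 cholangiocyte marker could be tested, and neither was called. Reads outside annotated genes made up 6.13% to 6.92% in WT and 7.77% to 9.65% in KO, and the mitochondrial genome took 6.30% to 8.02% and 8.09% to 10.2% of the counts. The part of cell composition and RNA quality in the ribosomal protein difference was not tested.

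**Figure D3:**
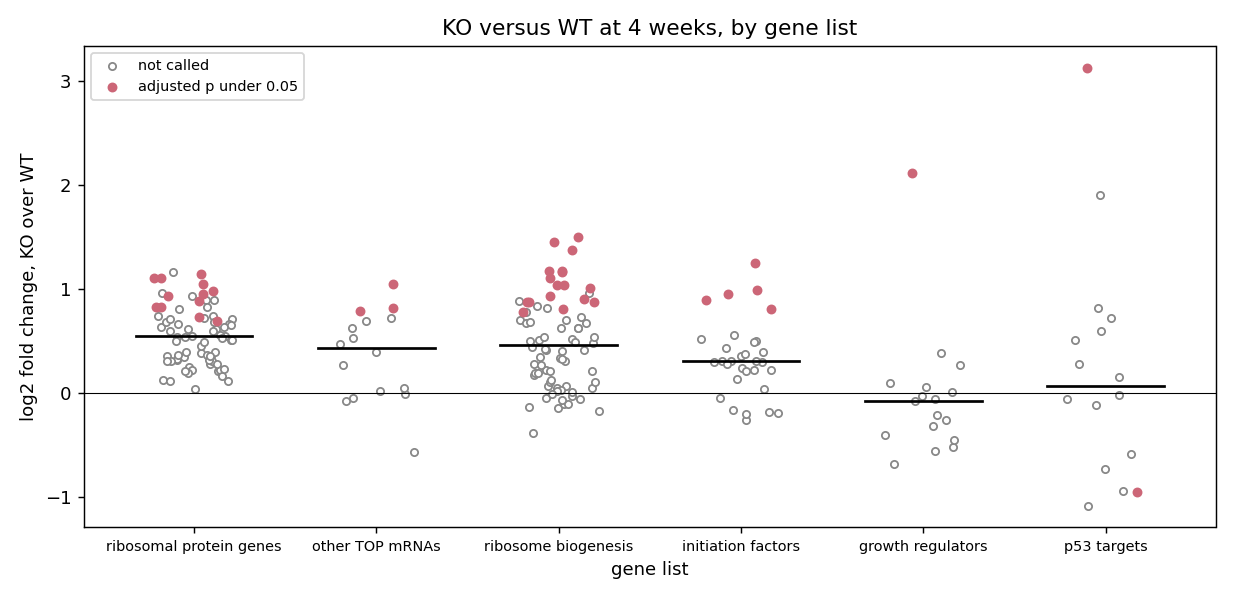
Log2 fold change of KO over WT at 4 weeks for each tested gene of 6 gene lists; filled red points passed adjusted p under 0.05, open points did not, and the black bar is the list median. The medians are 0.545 for the ribosomal protein genes, 0.431 for other TOP mRNAs, 0.462 for ribosome biogenesis factors, 0.306 for initiation factors, -0.074 for growth regulators and 0.069 for p53 targets.

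Genes that build ribosomes were tested beside the proteins themselves. Of 76 tested ribosome biogenesis factors, 17 were called higher and 0 lower at 4 weeks, against the same 5.17% of all genes, with a median log2 fold change of 0.462, and 59 were not called. Gnl2, a nucleolar GTPase of large subunit maturation, ranged from 42.3 to 53.4 CPM in WT and from 96.7 to 105 CPM in KO, which is a log2 fold change of 1.10 ± 0.18 (adjusted p = 0.00986 by edgeR). Ltv1, which helps export the small subunit, ranged from 18.5 to 24.0 CPM in WT and from 43.4 to 53.8 CPM in KO (1.18 ± 0.20, adjusted p = 0.0112 by edgeR). Their groups were far apart compared with the spread inside each. Translation initiation factors gave 5 higher and 0 lower of 31 tested, led by Eif2b3 (1.25 ± 0.19) and Eif2s1 (0.99 ± 0.18), both of the pathway that loads the initiator tRNA.

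Other TOP mRNAs outside the ribosome gave 3 higher and 0 lower of 16 tested. Hnrnpa1, an RNA-binding protein, stood between 45.2 and 58.3 CPM in WT and between 93.3 and 116 CPM in KO (1.05 ± 0.20, adjusted p = 0.0155 by edgeR), and Eif3e, an initiation factor subunit, had 0.79. Of 17 growth regulators of ribosome synthesis only Myc passed, in the direction of higher in KO, a share near the 5.17% of all genes called higher. It stood at 2.79 to 6.69 CPM in WT and at 11.5 to 27.1 CPM in KO (2.11 ± 0.40, adjusted p = 0.0169 by edgeR). Of the p53 targets, which respond when ribosome assembly fails, 1 of 16 tested rose (Btg2, 3.13) and 1 fell (Bax, -0.955), again near the 5.17% and 5.6% of all genes. Rpl22l1, the paralog of Rpl22 that the symbol rule leaves out, rose by 0.94 from 13.4 to 19.8 CPM in WT to 27.6 to 37.1 CPM in KO. Its parent Rpl22 had 0.38 and was not called (adjusted p = 0.236 by edgeR). Others outside the rule were not called, with 0.69 for Fau, 0.58 for Rps3a1, 0.36 for Rack1, -0.03 for Rpl36al, -0.05 for Rps4l and -0.24 for Rpl7l1.

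The counts of these lists also moved with single libraries. Leaving out one library gave 0 to 25 called biogenesis factors, 0 to 8 initiation factors and 0 to 7 other TOP mRNAs. The biogenesis count was 5 without WT library 1, 0 without WT library 2 or 3 and 4 without KO library 3. Myc lost its call without WT library 1, WT library 2 or KO library 3, and its adjusted p ran from 0.0115 to 0.0836 over the 6 fits by edgeR, and reached 0.115 in the fit of all 22 libraries. Proteins of the mitochondrial ribosome, a separate particle with its own proteins, gave 1 higher and 2 lower of 76 tested with a median of 0.160. Nuclear-encoded respiratory chain genes gave 2 higher and 1 lower of 82, median 0.154.

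At 8 weeks no member was called. Of 76 members tested, 0 were called by edgeR, against 0.0275% of all 14522 genes, and 3 had an unadjusted p under 0.05, against 10.4% of all genes. DESeq2 also called 0 members. The members took 0.414% to 0.428% of the counts in the 4 WT libraries and 0.393% to 0.542% in the 6 KO libraries, the KO range enclosing the WT range. Fold changes were above 0 in 71 of the 76, against 52.6% of all genes, with a median of 0.153 against 0.019. The groups did not overlap in 1 member, Rpl5, with KO higher, against 1.19% of all genes. It stood at 7.41 to 8.16 CPM in WT and 8.19 to 12.2 CPM in KO. Rpl12 had the largest fold change, 0.70 ± 0.30, with 2.43 to 2.95 CPM in WT and 2.51 to 7.94 CPM in KO. Rpl24 and Rpl36, both of the large subunit, followed with 0.50 and 0.43. Rpl11 had the lowest, -0.25 ± 0.13, then Rps27l with -0.11.

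The members were high in a pair of KO libraries at 8 weeks. KO libraries 1 and 2 were the highest or second highest of the 10 in 68 and 67 of the 76 members. Averaged over the members they lay 0.391 and 0.388 above the WT mean on the log2 scale, while the other 4 KO libraries lay between -0.092 and 0.045. Without KO library 1 the median was 0.092, and without KO library 2 it was 0.074. KO libraries 1 and 2 also had the highest summed hepatocyte markers (182500 and 173600 CPM) and macrophage markers (988 and 928 CPM) of the 10 libraries. KO libraries 5 and 6 came next, with 153100 and 139400 CPM of hepatocyte and 794 and 872 CPM of macrophage markers. Their members averaged -0.004 and -0.092 against the WT mean on the log2 scale. The part of these differences in the members' values was not tested.

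**Figure D4:**
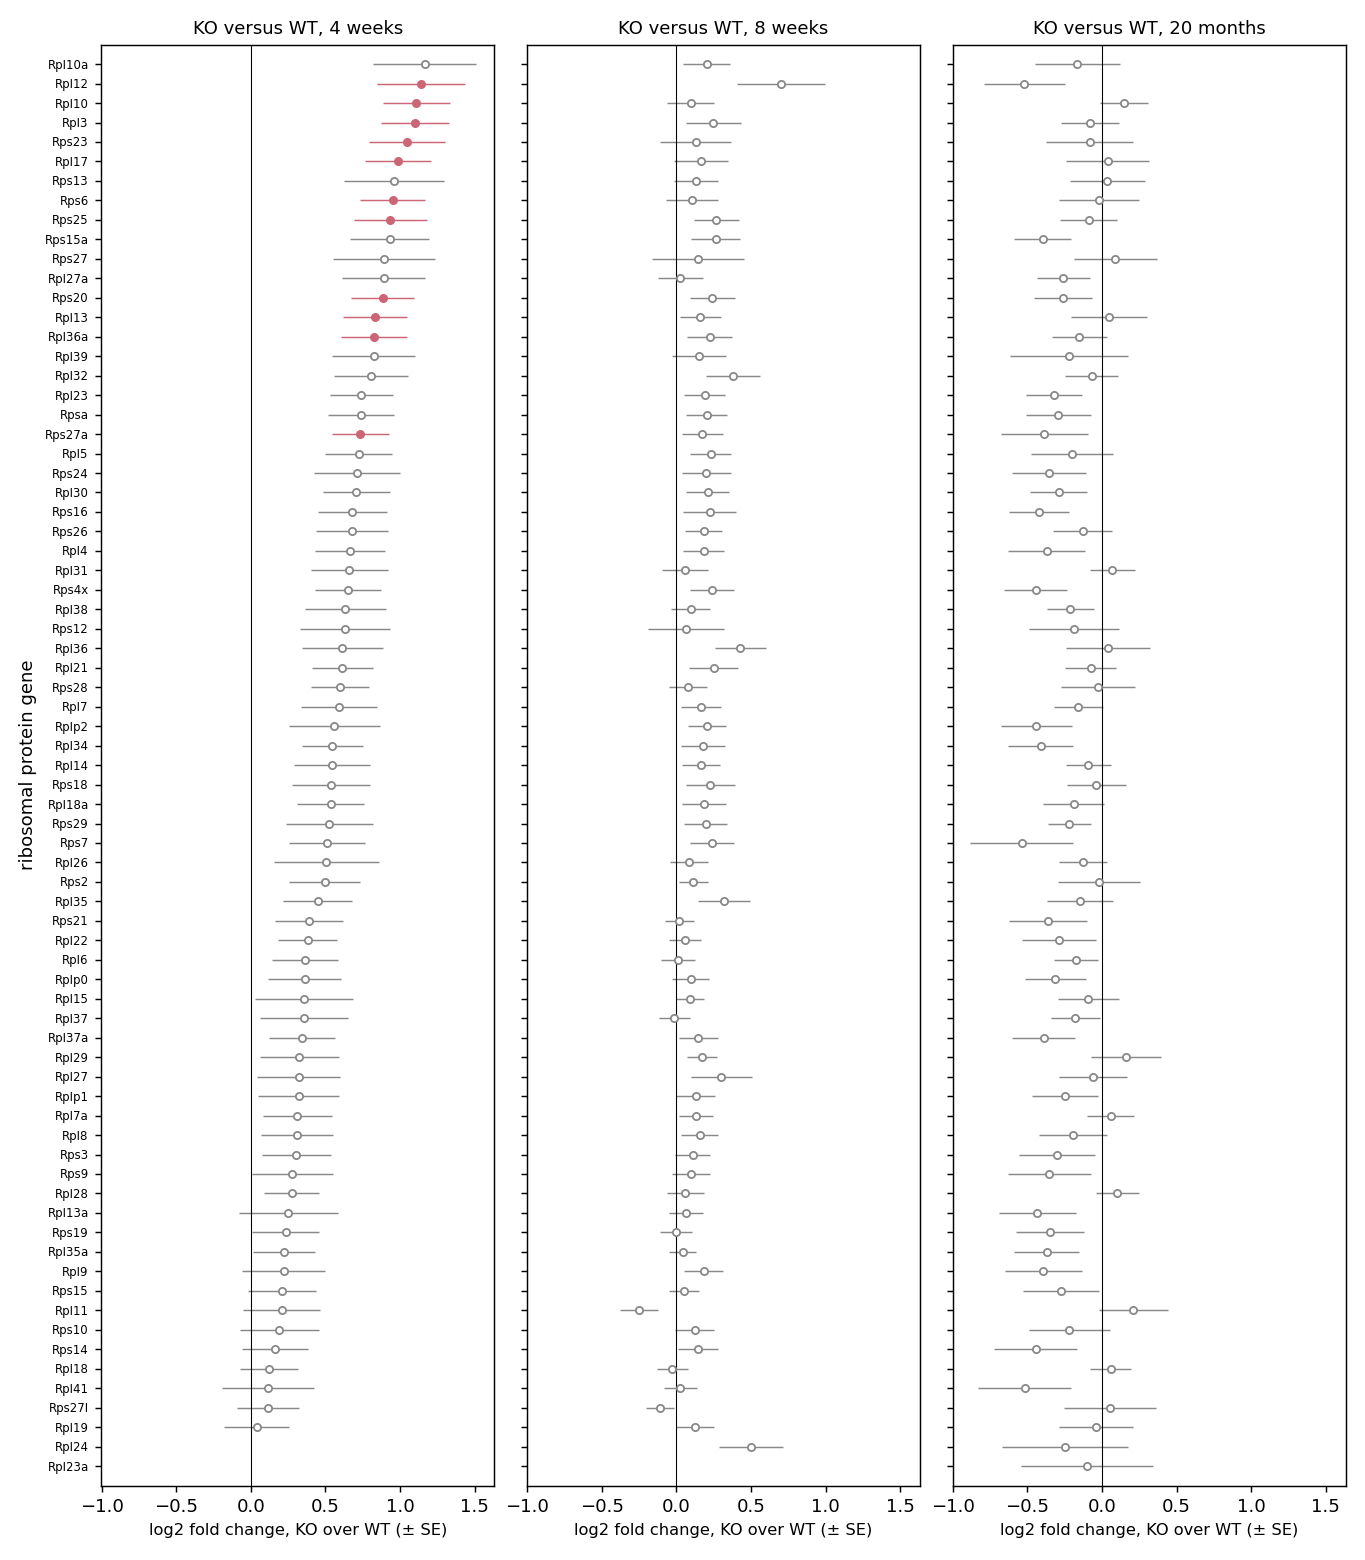
Log2 fold change of KO over WT with its standard error for tested ribosomal protein genes at 4 weeks, 8 weeks and 20 months, in the order of the 4-week value; filled red points passed adjusted p under 0.05 and open points did not. All 71 genes drawn lie above 0 at 4 weeks, 67 of 72 at 8 weeks and 13 of 73 at 20 months.

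At 20 months the balance lay below 0, without a single call. Of 77 members tested, 0 were called by edgeR, 0 had an unadjusted p under 0.05 and 62 had a fold change below 0, where 49.5% of all genes were above 0. Over all 13966 genes edgeR called 0% at that threshold, 5.53% had an unadjusted p under 0.05 and DESeq2 called 53 genes, none of them a member. The members took 0.902%, 0.707% and 0.666% of the counts in WT and 0.576%, 0.686% and 0.608% in KO, ranges that overlap. The groups did not overlap in 7 members with KO lower and 1 with KO higher, against 4.6% and 5.64% of all genes. The median log2 fold change was -0.186 against -0.003 over all genes. Rps7, Rpl12 and Rpl41 had the lowest values, -0.54 ± 0.34, -0.52 ± 0.27 and -0.52 ± 0.31. Rpl11 and Rpl29 were among the highest, with 0.21 and 0.16.

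The median moved with single libraries at this age too. WT library 1, with the most neutrophil markers, was the highest of the 6 in 50 of the 77 members, and KO library 1 was the lowest in 40. In KO library 1 reads outside annotated genes made up 14.7% and the mitochondrial genome 6.91%, against 7.0% to 8.52% and 2.80% to 4.82% in the other 5. Without WT library 1 the median was -0.079 and 32.5% of members were above 0. The part of neutrophil RNA or of library quality in these values was not tested.

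The difference between ages in the KO effect was tested directly, in a fit of all 22 libraries. At 20 months minus 4 weeks, 12 of 77 members were called, all with a lower KO effect at 20 months, against 2.52% of all 15877 genes in that direction. The median difference was -0.719 on the log2 scale against -0.023 over all genes, and 75 of the 77 were below 0. Rps20 gave -1.14 ± 0.27 (adjusted p = 0.0237 by edgeR). At 20 months it stood at 57.5, 43.7 and 37.4 CPM in WT and at 40.8, 37.9 and 36.9 CPM in KO, overlapping groups, where at 4 weeks they had been separate. Rpl23, a large subunit protein at the interface between the subunits, gave -1.06 ± 0.25, and Rps15a gave -1.32 ± 0.33, the largest of the 12. Rpl3, Rpl30 and Rps4x were also among the 12. Of the 12, 5 were also called in the 4-week comparison alone, which shares its libraries with this test.

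The other tests of the KO effect between ages called no member. At 8 weeks minus 4 weeks, edgeR called 0 of 77 against 0.328% of all genes, 17 had an unadjusted p under 0.05 against 14.1% of all genes, the median was -0.374 and 76 were below 0. At 20 months minus 8 weeks it called 0 of 77 against 0% of all genes, with 8 at an unadjusted p under 0.05 against 11.3% of all genes. The joint test over the 3 ages called 0 members against 1.62% of all genes, with 32 at an unadjusted p under 0.05 against 20% of all genes, and a lowest adjusted p of 0.0528. The count of 12 was also bound to single libraries and to the low-count filter, without which it was 1. It fell to 0 without WT library 2 or 3 at 4 weeks, WT library 1 at 20 months or KO library 3 at 20 months, and to 1 without KO library 3 at 4 weeks or KO library 1 at 20 months. It was 23 without KO library 1 at 4 weeks. Because 4-week and 20-month libraries were read with different layouts, age and layout cannot be told apart in this difference.

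Between 4 and 8 weeks almost every member was lower at the later age. In WT livers 76 of 77 tested were called lower and 0 higher, against 25.7% of all 14003 genes called lower and 27.5% called higher, with a median log2 fold change of -1.63 against 0.045. In KO livers 75 of 76 were called lower and 0 higher, against 18.8% and 18.9% of all 14826 genes, with a median of -2.11. Rps28, a small subunit protein near the mRNA exit, stood at 79.9, 88.1 and 92.2 CPM in WT at 4 weeks and at 13.9, 13.2, 15.8 and 14.3 CPM at 8 weeks (-2.62 ± 0.09, adjusted p = 1.7e-07 by edgeR). Rpl30, Rpl35, Rpl23 and Rpl36a had -2.32, -2.215, -2.40 and -2.42. Rps23 had the largest difference, from 38.0 to 55.3 CPM at 4 weeks to 0.892 to 1.58 CPM at 8 weeks, -5.37 ± 0.21 in WT and -6.36 ± 0.23 in KO. Rpl24 alone had a value above 0 in WT, 0.825, and was not called.

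Other lists were lower at 8 weeks as well. Of the nuclear-encoded respiratory chain genes 74 of 84 tested were called lower in WT, with a median of -1.17, and of the mitochondrial ribosomal proteins 67 of 76, with a median of -0.79. Ribosomal protein pseudogenes had the lowest median, -4.08, with 24 of 25 called lower. Their summed share of the counts was 0.0170% to 0.0209% in WT at 4 weeks and 0.00154% to 0.00179% at 8 weeks. The members with under 50% shared words had a median of -1.40 with 12 of 12 called, and those with all words shared one of -1.895 with 26 of 27. Paired reads at 4 weeks and single reads at 8 weeks cannot be told apart from age here. All words of Rps23 occur in other genes, as do those of Rpl24. Rpl24 had only 4, 3 and 3 counts in the WT libraries at 4 weeks, so its value rests on counts near the floor. The part of read layout in these values was not tested.

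Between 8 weeks and 20 months, both read singly but under different run tags, the members split. In WT livers 39 of 76 were called higher and 17 lower, against 27.7% and 26.8% of all 14322 genes, and in KO livers 26 were called higher and 20 lower, against 23.4% and 22.4% of all 15002 genes. The medians were 0.487 and 0.299. Rps3, a small subunit protein at the mRNA entry, stood at 158 to 177 CPM in WT at 8 weeks and at 647, 556 and 567 CPM at 20 months (1.79 ± 0.12, adjusted p = 2.9e-05 by edgeR). Rpl41, the shortest ribosomal protein, went from 83.7 to 91.0 CPM to 525.6, 357 and 331 CPM (2.16 ± 0.18). Rpl34, Rpl35a and Rps15 rose by 1.45, 1.25 and 1.15.

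In the opposite direction, Rpl36 went from 17 to 19.4 CPM at 8 weeks to 3.78, 2.94 and 4.17 CPM at 20 months (-2.39 ± 0.15, adjusted p = 2.47e-05 by edgeR). Rpl21 went from 30.6 to 35.5 CPM to 10.3, 10.3 and 9.83 CPM (-1.78 ± 0.09). Rpl29, which binds heparin and is dispensable for life in mice, had -1.985, and Rpl19, at the subunit bridge, -1.66. Members were thus called in both directions between the same 2 sets of libraries, which also differ in run tag. The counts called lower, 17 of 76 in WT and 20 of 76 in KO, lay near the shares of all genes called lower, 26.8% and 22.4%.

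The same split was seen in the other genotype, which shares no library with it. Of the members called higher in WT, 25 were also called higher in KO (64.1% of the WT list and 96.2% of the KO list), and 16 were called lower in both (94.1% and 80%), with 0 called in opposite directions. Across the 76 members the WT and KO fold changes had a Pearson r of 0.966 and a Spearman rho of 0.953, over genes that share length, sequence and the 2 run tags. Members with under 50% shared words gave 11 higher and 0 lower of 12 tested in WT, median 1.14, and 8 higher and 0 lower in KO, median 0.961. The 17 members called lower in WT all had over 50% of their words in another gene.

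**Figure D5:**
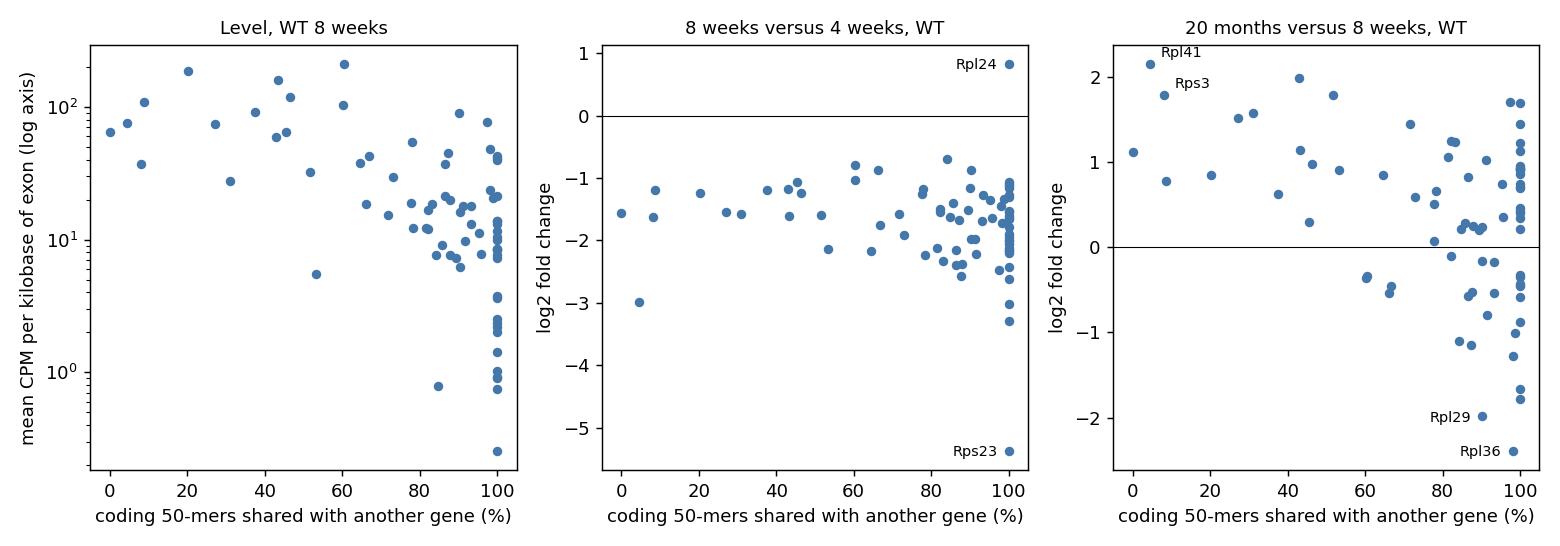
Each point is a ribosomal protein gene, placed on the x axis by the percent of its coding 50-base words that occur in another annotated gene. The y axis gives its mean level in WT at 8 weeks in CPM per kilobase of exon (left, log axis), its log2 fold change from 4 to 8 weeks in WT (middle) and from 8 weeks to 20 months in WT (right). Levels fall to the right, Rps23 stands lowest in the middle panel, and all values below 0 in the right panel lie above 50% shared.

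Levels per kilobase of exon differed widely between members. In WT at 8 weeks Rplp1 was highest, at 211 ± 8.46 CPM per kilobase (SD, n = 4), and other high levels were those of Rpl4 at 186 ± 4.81, Rps15 at 159 ± 6.35 and Rpl8 at 110 ± 6.53. The means of these genes lay further apart than either SD. Among the lowest above 0 were Rps23 at 0.908 ± 0.260, Rps12 at 0.787 ± 0.279 and Rpl12 at 0.742 ± 0.0618, which did not differ beyond their spread, then Rpl23a at 0.256 ± 0.105 and the muscle paralog Rpl3l at 0.0585 ± 0.0453. The level fell with shared sequence, with a Pearson r of -0.590 and a Spearman rho of -0.644 between the percent of shared words and log2 CPM per kilobase over 77 genes of the same libraries. Rpl23a, required in every ribosome, gave 1 to 14 counts in any library, and all of its words occur in other genes, 29 in number.

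Tissue-restricted paralogs were near or at 0. Rpl10l, known from the testis, had 0 counts in all 22 libraries, and Rpl39l, also a testis form, had 0 to 2. Rpl3l, the form of heart and skeletal muscle, had 0 to 7 counts in 21 libraries and 18 in KO library 6 at 8 weeks, the library with 102 CPM of muscle markers. Rps27l had a high count. Its level per kilobase in WT at 8 weeks was 74.0 ± 3.32 CPM, where its parent Rps27 had 0.917 ± 0.171. Of the words of Rps27l 27.1% were shared, and of those of Rps27 100%, with 9 other genes, so the level of Rps27 is uncertain and so is the comparison. Rps27l is a p53 target in other settings, and its fold changes between genotypes were 0.11 at 4 weeks, -0.11 at 8 weeks and 0.05 at 20 months, none of them called.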

How the data were processed

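Poly(A) RNA of mouse liver was sequenced as 22 libraries on an Illumina HiSeq-2500, per the labels' protocols. The authors deposited 1 table of raw read counts per gene and library, made with HISAT2 2.0.4, HTSeq 0.6.1p1 and the GRCm38 build, per the submitters' processing notes. The strand setting, annotation release and treatment of multiply aligned reads are not given in the sources used here. The 5 summary lines of each table were left out. Of 47729 gene identifiers 47224 had a symbol. Libraries were grouped by title.

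Counts were tested with edgeR 4.0.16 in R 4.3.3 (filterByExpr, TMM factors, quasi-likelihood F test, Benjamini-Hochberg adjustment over all genes tested, threshold 0.05), per comparison on its 2 groups, and the differences between ages on all 22 libraries. The functions were tested on simulated data with 200 changed genes. The simulated spread was set below that of the KO versus WT data, so it does not show how well changes are found here. CPM use TMM factors of all libraries. Exon lengths, coding words and gene types came from GENCODE M21 (GRCm38), and start sites from RefSeq (GRCm38.p6).

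Members named were a fixed panel, up to 6 called in each direction per comparison by adjusted p, the 3 largest and 3 smallest KO fold changes at each age, the 5 highest and 5 lowest per kilobase, and up to 6 called in a test between ages. Of the other lists, the 2 called genes with the lowest adjusted p were named. Rpl13 and Rps25 were named after their values were seen. The members and lists were chosen with earlier results of these data known. Alternatives were another scaling, DESeq2, no low-count filter, a replicate block, a wider list, pseudogene counts added to parents, and each library left out. Some genes that the rules would name are not reported here singly or drawn by name, but enter the counts and medians.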

Additional observations from a re-analysis of the deposited data

Results flagged for a closer look

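Among 92 sets of values at 8 weeks (43 named members and 3 summed measures, each in the 4 WT and the 6 KO libraries), a single library lay far from the others in 3, and chance alone gives about 1 in 20. Rpl10a stood at 14.6 CPM in WT library 2 at 8 weeks, the lowest of 4. Rplp1 stood at 98.9 CPM in WT library 1, the lowest of the same 4. Rpl3l stood at 0.673 CPM in KO library 6 at 8 weeks, the highest of 6, in the library with 102 CPM of muscle markers. The KO effect (log2) differed between 20 months and 4 weeks in 12 members by edgeR's test of the difference. The differences were -1.14 for Rps20, -1.06 for Rpl23, -1.32 for Rps15a, -1.09 for Rps4x, -1.18 for Rpl3 and -0.99 for Rpl30. They were -1.03 for Rpsa, -0.96 for Rpl10, -1.03 for Rpl4, -1.11 for Rps27a, -1.14 for Rpl27a and -0.97 for Rpl36a. Age and read layout cannot be told apart in these.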

How the results depend on the processing

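Only some genes were followed singly under the alternatives, and most members called in the age comparisons were not. Among those followed, no called value changed sign. Small uncalled differences of named members did when one library was left out. At 4 weeks these included Rpl19 (0.04 to -0.075), Rpl11 (0.207 to -0.048) and Rpl41 (0.117 to -0.16). At 20 months they included Rpl39 (-0.223 to 0.32), Rpl10a (-0.167 to 0.175) and Rps27l (0.053 to -0.163). At 4 weeks the 12 members called higher became 22 with DESeq2 and 26 in a fit of all 22 libraries. Of the 12 tested members with under 50% shared words, a subset of the same fit, 0 were called. The 1200 genes called became 2048 without the low-count filter. Called biogenesis factors became 9 with library totals alone, and called TOP mRNAs 6 with DESeq2 and 6 in the fit of all libraries. Genes called by DESeq2 were 109 at 8 weeks and 53 at 20 months. With library totals alone 1 member was called higher at 8 than at 4 weeks in WT, and the medians were -1.376 in WT and -1.853 in KO. Members with under 50% shared words gave 12 lower in each genotype (medians -1.398 and -1.799), then 11 higher and 0 lower in WT (1.136) and 8 higher and 0 lower in KO (0.961) at 20 months against 8 weeks. Genes with a KO effect differing between 8 and 4 weeks became 30 with RLE factors and 18 without the filter, those between 20 months and 8 weeks 14 without the filter, and those between 20 months and 4 weeks 404 without it, with 1 member. Replicate numbers were not treated as pairs in the main tests. Same-numbered WT and KO libraries correlated at -0.072, 0.011 and 0.012 at 4 weeks and at -0.002, -0.16, 0.072 and -0.327 at 8 weeks. At 20 months the values were 0.436, 0.031 and 0.458, and libraries 1 and 3 correlated best with their own number. At no age did every library do so. Deviations from the means of so few libraries cannot settle whether the numbers are pairs. The replicate block gave 2 members, 537 genes, 4 biogenesis factors, 3 initiation factors and 1 TOP mRNA called at 4 weeks and 0 genes at 8 weeks. Leaving out one library each gave, at 4 weeks, 0 to 37 members, 184 to 2012 genes, 0 to 25 biogenesis factors, 0 to 8 initiation factors and 0 to 7 TOP mRNAs called. It gave 1 to 5 genes at 8 weeks, 0 to 71 genes at 20 months with 15.6% to 32.5% of members above 0, and 18 to 30 members higher at 20 months than at 8 weeks in KO. For the KO effect it gave 0 to 1 members and 8 to 270 genes (8 minus 4 weeks), 0 to 517 genes (20 months minus 8 weeks), 0 to 23 members and 164 to 1405 genes with a median of -0.828 to -0.521 (20 months minus 4 weeks), and 0 to 7 members and 26 to 1081 genes in the joint test. The cause of these changes was not tested. The 4-week libraries were the shallowest, and 11144 genes passed the count filter there against 14522 at 8 weeks.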
